A study of Homo sapiens with 7 samples.

Results

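PF-382 and MOLT-14 are established human cell lines from acute lymphoblastic leukaemia of T cells, abbreviated T-ALL, and the comparison described here sets every PF-382 library against every MOLT-14 library, whatever its STAG2 status. All 7 samples of the series entered it, 5 from PF-382 and 2 from MOLT-14, grouped as the labels give them. STAG2 encodes a subunit of cohesin, the ring complex that holds and loops chromosomes. The PF-382 samples were 2 untreated wild-type libraries and 3 libraries with STAG2 knocked out by Cas9 and guide RNA delivered as a ribonucleoprotein. The MOLT-14 samples were 1 library transduced with an empty vector and 1 library transduced with STAG2, so each MOLT-14 condition is a single library and no untransduced MOLT-14 library was analysed. Cells of both lines were grown in RPMI medium with serum, and libraries were made from total RNA. The labels do not say whether libraries of one condition came from separate cultures or clones, so p values measure the spread between these libraries, which may be technical, and the comparison is of 2 cell lines and not of kinds of leukaemia. Library values below follow a fixed order: wild type 1 and 2 and knockout 1, 2 and 3 for PF-382, then empty vector and STAG2 for MOLT-14.

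A T cell carries a receptor of an alpha and a beta chain or of a gamma and a delta chain. Each is joined by the RAG1 and RAG2 recombinase from V and J gene segments, with D segments in beta and delta chains only. The joined segments are spliced to a constant region. Developing thymocytes that follow the alpha beta path first show a beta chain with PTCRA, the surrogate alpha chain of the pre-TCR, on their surface together with the CD3 chains. They then acquire CD4 and CD8 and cortical CD1 proteins before the alpha locus is joined. T-ALL cells are arrested along this path and often express transcription factors such as TAL1, LYL1, LMO2, TLX1, TLX3, NKX2-1 or HOXA proteins that are silent or low in normal thymocytes of the matching stage.

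Each line is first placed by its libraries. Total counts were 32609485 to 93970572 in PF-382 and 38678382 and 45013450 in MOLT-14. Pearson's r of log2 levels across genes was 0.955 to 0.991 among PF-382 libraries, 0.986 between the MOLT-14 libraries and 0.815 to 0.835 between lines. Genes are not independent replicates, so these values only describe the libraries. Small nuclear, nucleolar and similar RNA took 11.96% to 21.0% of the counts in PF-382 and 4.87% and 9.27% in MOLT-14, and mitochondrial genes took 0.222% to 0.600% and 4.92% and 1.43%. Their part in any gene's value was not tested. STAG2 itself was read at 335, 569, 254, 178 and 193 CPM (counts relative to the library total, scaled by the trimmed mean of M values) in PF-382 and 1.17 and 138 CPM in MOLT-14. The empty-vector MOLT-14 library therefore held almost no STAG2 RNA, and the libraries labelled knockout retained it below both wild-type libraries.

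Of 18644 genes tested with edgeR's quasi-likelihood test and adjusted over all of them (Benjamini-Hochberg, two-sided), 3824 were higher in PF-382 (20.5%) and 4096 were higher in MOLT-14 (22.0%) at an adjusted p under 0.05. Differences of at least 2-fold made up 2539 and 3404 of these calls. The libraries of the lines did not overlap for 10802 genes (57.9%), and 7868 of the called genes were among them. In 3701 of these 7868 the nearest libraries of the lines were at least 2-fold apart, and in 782 at least 10-fold. The difference between lines exceeded the range within each line for 7056 of them, or 89.7%. In 3590 of them, 45.6%, the wild-type and knockout PF-382 libraries did not overlap with each other either, beside 10577 genes or 56.7% of all tested. Scaling by the library total alone turned the split to 2476 and 5612 calls, with 30.6% of calls higher in PF-382 in place of 48.3%, and it moved the median over all genes from -0.01 to -0.34. With upper-quartile scaling that median was -0.15. Leaving out a MOLT-14 library leaves a single sample in that arm, which is then assumed to vary like PF-382. The counts were then 1721 and 2013 without the empty-vector library and 1846 and 2182 without the STAG2-transduced library. Of 164 called genes among those examined by name, 126 were called without either library, and the exceptions are given where the genes are described.

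**Figure D1:**
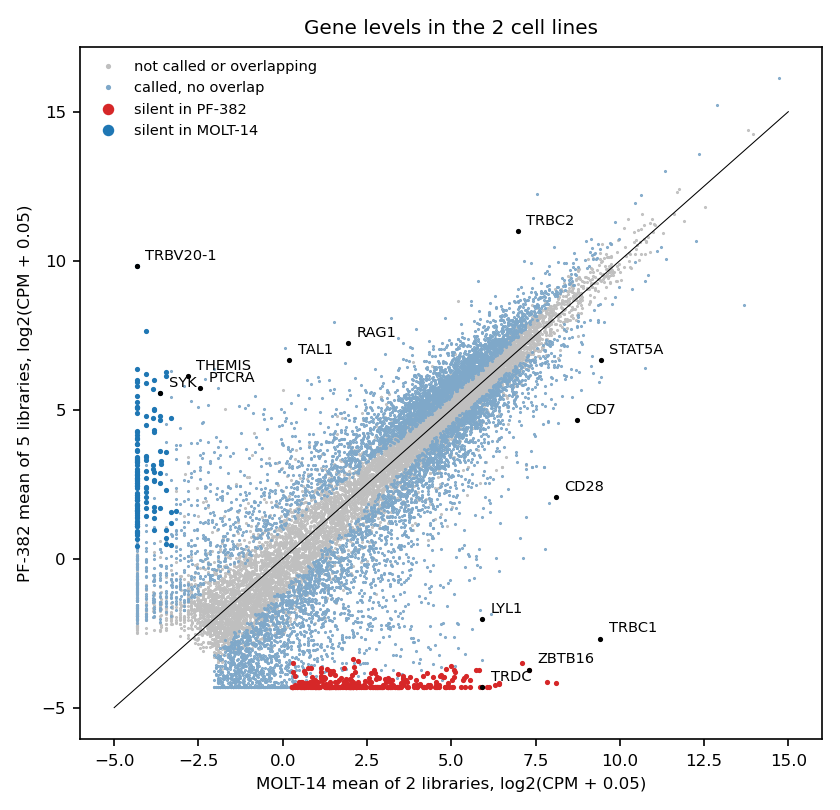
Mean level of each tested gene in MOLT-14 (horizontal axis, 2 libraries) and PF-382 (vertical axis, 5 libraries), as log2 of CPM plus 0.05. Pale blue points are called genes whose libraries do not overlap, red and dark blue points along the axes are genes silent in PF-382 and in MOLT-14, and labelled black points are genes described in the text; TRBV20-1 and TRDC lie on opposite axes.

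**Figure D2:**
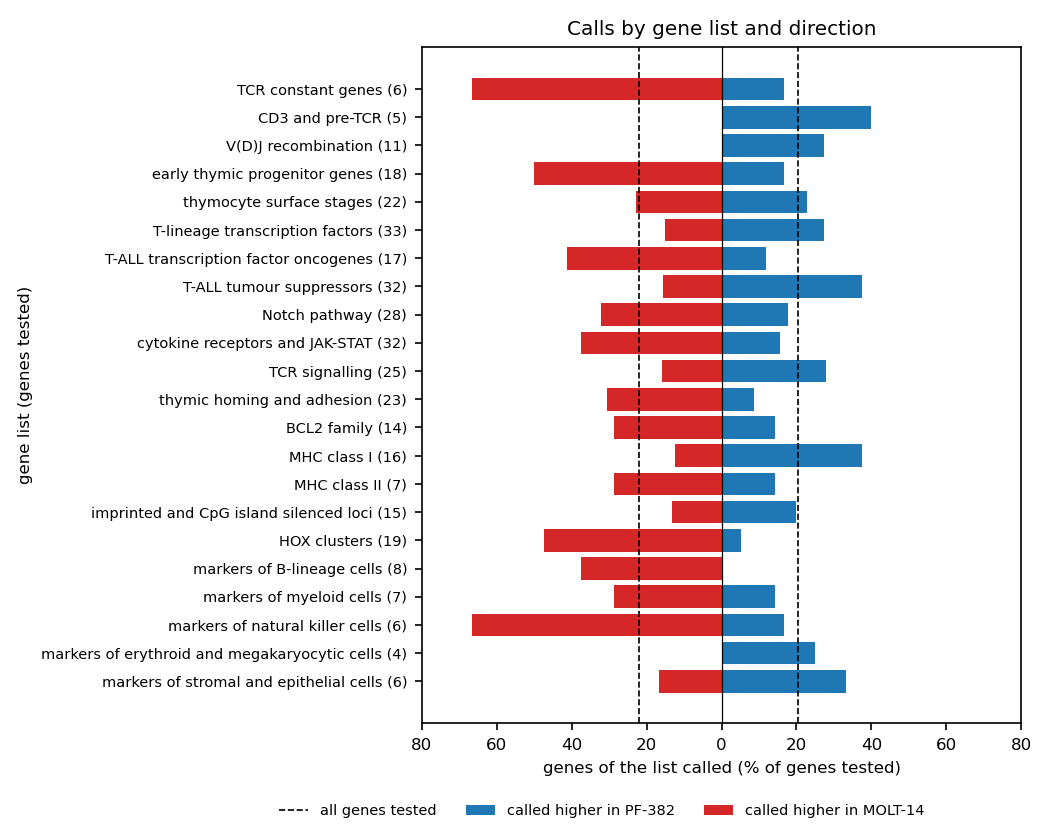
Share of each gene list called higher in PF-382 (bars to the right) and in MOLT-14 (bars to the left), as a percentage of the members tested, whose number is in brackets. Dashed lines mark the shares over all genes, 20.5% and 22.0%; the bars of the shortest lists rest on 4 to 6 genes.

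MOLT-14 carried RNA of gamma, delta and beta constant regions, and PF-382 carried beta constant RNA nearly alone. TRDC, the delta constant gene (GRCh38, GENCODE 29: chromosome 14, 22462932 to 22465787, + strand), was read at 63.2 and 58.4 CPM in MOLT-14 and at 0 counts in each of the 5 PF-382 libraries. Its mean was at least 623-fold higher in MOLT-14 against a floor of 3 counts per library (adjusted p = 8.26e-05). Later folds of this kind also use the mean of a line. Levels of TRBC2 (chromosome 7, 142801041 to 142802748, + strand) were 1619, 2737, 2319, 1699.7 and 1760.3 CPM in PF-382 and 123 and 130.0 CPM in MOLT-14 (log2 difference 4.003 ± 0.33, adjusted p = 1.07e-04). Its neighbour TRBC1 (chromosome 7, 142791694 to 142793368, + strand) went the other way, with 0.125, 0.130, 0.162, 0.0686 and 0.0405 CPM in PF-382 and 641 and 729 CPM in MOLT-14 (log2 difference -12.75 ± 0.37, adjusted p = 1.70e-06). TRGC1 stood at 0.251, 0.130, 0.130, 0.640 and 0.243 against 24.7 and 33.9 CPM (log2 difference -6.63 ± 0.55, adjusted p = 1.06e-04). TRGC2 stood at 1.94, 1.11, 1.33, 9.66 and 3.97 against 202 and 274 CPM (log2 difference -6.01 ± 0.76, adjusted p = 6.40e-04), and the second knockout library was the highest of the PF-382 libraries for both gamma genes. TRAC, the alpha constant gene, was low and overlapping in the lines, at 3.23, 0.163, 1.48, 0.926 and 3.10 and 0.250 and 1.95 CPM (log2 difference 0.69 ± 1.06, adjusted p = 0.630). In all, 4 of 6 constant genes were higher in MOLT-14 and 1 was higher in PF-382, beside 22.0% and 20.5% of all genes tested. Their median log2 difference was -6.32 beside -0.01 over all genes. TRBC1 and TRBC2, and TRGC1 and TRGC2, are near-identical copies whose estimated counts were partly fractional, so the split within each pair is uncertain. In such bulk libraries, fewer cells with a receptor and less receptor RNA per cell cannot be told apart.

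On a scale per transcript length, TPM (transcript abundance scaled to one fixed total per library), the chains can be set against each other. Beta constant genes summed to 968 to 2165 TPM in PF-382, 99.6% to 99.97% of all receptor constant TPM, and to 956 and 1250 TPM in MOLT-14, 76.5% and 78.0%. Gamma genes made up 15.04% and 17.8% and the delta gene 5.58% and 6.92% of receptor constant TPM in MOLT-14. The gamma share was at most 0.396% in PF-382. The alpha share did not pass 0.145% in any of the 7 libraries.

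Among variable segments, TRBV20-1 (chromosome 7, 142626649 to 142627399, + strand) was read at 765, 1282, 1032, 716 and 747 CPM in PF-382 and at 0 counts in both MOLT-14 libraries, which is at least 14552-fold higher (adjusted p = 1.10e-05). It took 94.7% to 99.2% of all TRBV counts in the PF-382 libraries. TRBV6-6 was also present there, at 25.6, 60.5, 1.15, 4.37 and 4.67 CPM, with wild-type libraries above knockout libraries, and was at 0 counts in MOLT-14 (at least 309-fold higher, adjusted p = 0.0180). The nearby TRBV7-4 and TRBV7-5 had 1.09 to 3.07 and 1.81 to 2.54 CPM in PF-382 and 0 counts in MOLT-14, with partly fractional estimates. MOLT-14 had 778 and 824 TRBV counts in all, against 25570 to 64109 in PF-382. Its leading TRBV segments were TRBV10-1, at 9.89 and 8.79 CPM against 0 to 0.0325 CPM in PF-382 (adjusted p = 4.24e-05), and TRBV28, at 4.31 and 4.61 CPM against 0 counts (at least 45.7-fold higher, adjusted p = 6.28e-04). The beta constant RNA of MOLT-14 was thus accompanied by little TRBV RNA. Its gamma segments were TRGV3, at 61.9 and 98.2 CPM against 1.38, 0.586, 0.552, 1.36 and 0.904 CPM (log2 difference -6.38 ± 0.39, adjusted p = 2.44e-05), and TRGV8, at 12.9 and 16.8 CPM against 0.0627, 0.0651, 0.0324, 0.240 and 0.0675 CPM (log2 difference -7.16 ± 0.59, adjusted p = 1.07e-04). TRGV3 made up 82.3% and 84.8% of TRGV counts. TRDV1 was the sole delta segment with more than 3 counts in MOLT-14, at 12.2 and 9.96 CPM, and was at 0 counts in PF-382 (at least 113-fold higher, adjusted p = 3.56e-04). With a library left out, TRBV6-6 no longer passed. For TRBV6-6 the adjusted p was 0.0926 and 0.0905 without the empty-vector and STAG2-transduced libraries in turn.

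Of the 5 CD3 and pre-TCR genes, 2 were higher in PF-382 and none in MOLT-14, beside 20.5% and 22.0% of all genes tested. Their median log2 difference was 0.64. PTCRA was read at 40.9, 54.4, 59.4, 30.1 and 77.5 CPM in PF-382 and 0.0832 and 0.181 CPM in MOLT-14 (log2 difference 8.60 ± 0.61, adjusted p = 5.04e-05), so the lowest PF-382 library was far above both MOLT-14 libraries. CD3G was at 162, 183, 223, 179.8 and 196 against 94.1 and 86.5 CPM (log2 difference 1.07 ± 0.18, adjusted p = 0.00221). CD3D at 441, 703, 412, 392 and 401 against 311 and 293 CPM and CD3E at 249.9, 300.2, 230.5, 205 and 193 against 192 and 183 CPM did not overlap between lines and were not called (log2 differences 0.64 and 0.33, adjusted p = 0.0883 and 0.226). CD247, the CD3 zeta chain, overlapped at 81.9, 42.8, 80.99, 103 and 89.2 and 55.9 and 83.1 CPM (log2 difference 0.20, adjusted p = 0.650). Both lines held RNA of all CD3 chains, the defining RNA of T cells. RAG1 (chromosome 11, 36510709 to 36593156, + strand) was read at 55.6, 4.78, 203, 163 and 325 CPM in PF-382 and 3.16 and 4.37 CPM in MOLT-14 (log2 difference 5.32 ± 1.499, adjusted p = 0.0218). The second wild-type PF-382 library was barely above MOLT-14 and the knockout libraries were the highest, so the size of the RAG1 difference depends on the PF-382 libraries chosen. RAG2, its neighbour and partner, followed with 6.36, 0.423, 5.81, 7.38 and 16.2 and 0.291 and 0.262 CPM (log2 difference 4.70 ± 1.25, adjusted p = 0.0173). DNTT, which adds bases at the joints, overlapped at 23.2, 49.0, 2.73, 6.86 and 11.98 and 29.3 and 19.8 CPM (log2 difference -0.39, adjusted p = 0.748). Over the recombination list, 3 of 11 genes were higher in PF-382 and none in MOLT-14, beside 20.5% and 22.0% of all genes. The median of the list was 0.56. No gene of this list was called without the empty-vector or without the STAG2-transduced library. The call of RAG1 and RAG2 ended when a library was left out. For RAG1 the adjusted p was 0.149 and 0.125 without the empty-vector and STAG2-transduced libraries in turn. For RAG2 the adjusted p was 0.118 and 0.120 without the empty-vector and STAG2-transduced libraries in turn.

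**Figure D3:**
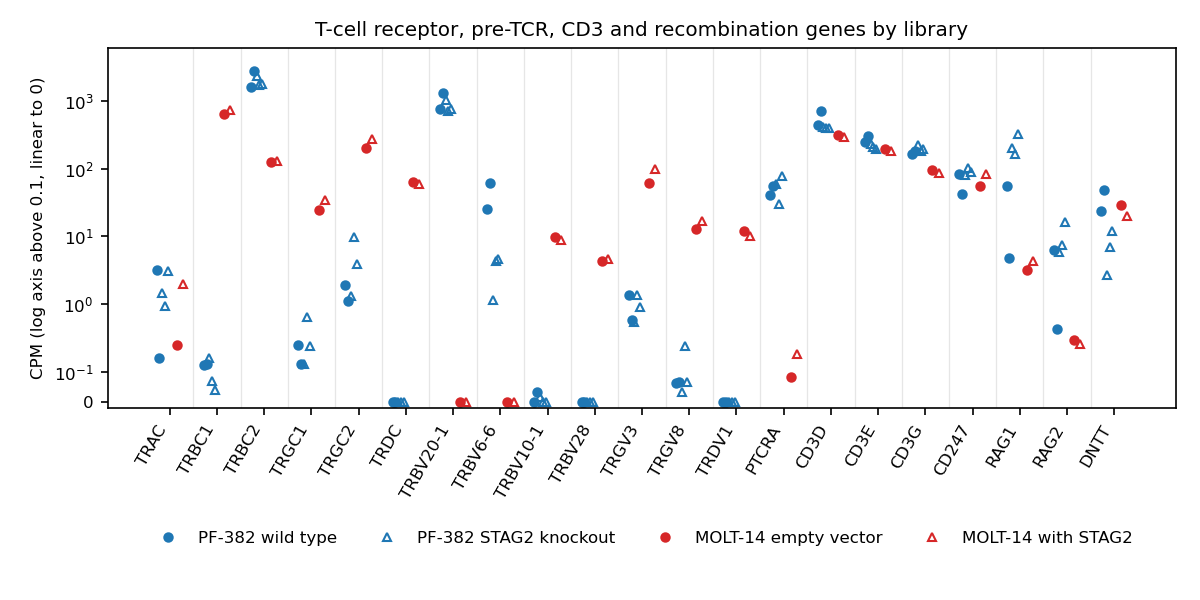
CPM of receptor constant genes, receptor V segments, the pre-TCR and CD3 genes and recombination genes in every library. Blue marks PF-382 and red marks MOLT-14, with filled circles for wild type or empty vector and open triangles for STAG2 knockout or STAG2 transduction; the axis is logarithmic above 0.1 CPM and linear to 0. TRDC, TRDV1 and TRBV28 sit at 0 in PF-382, TRBV20-1 and TRBV6-6 sit at 0 in MOLT-14, and RAG1 spreads from 4.78 to 325 CPM within PF-382.

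Early thymic progenitors are the immature cells that seed the thymus. Of 18 of their genes tested (25 listed), 9 were higher in MOLT-14 and 3 in PF-382, with a median log2 difference of -2.88. Over all genes tested, 22.0% were higher in MOLT-14 and 20.5% in PF-382. LYL1, a basic helix-loop-helix factor of immature T-ALL, was read at 0.502, 0.0976, 0.0811, 0.183 and 0.121 CPM in PF-382 and 46.8 and 74.1 CPM in MOLT-14 (log2 difference -8.36 ± 0.54, adjusted p = 3.38e-05). CEBPA, a myeloid and progenitor factor, was at 0 counts in PF-382 and at 12.5 and 8.57 CPM in MOLT-14 (at least 108-fold higher, adjusted p = 4.33e-04). GATA2, a transcription factor of haematopoietic stem cells, was at 0.502, 0.521, 0.162, 0.160 and 0.162 against 14.7 and 11.3 CPM (log2 difference -5.51 ± 0.53, adjusted p = 2.06e-04). CD33, a myeloid surface protein, was also at 0 counts in PF-382 but reached only 1.56 and 1.03 CPM in MOLT-14 (at least 13.3-fold higher, adjusted p = 0.00183). The progenitor surface protein CD34 was named after its values were seen, at 0.909, 6.80, 3.72, 4.81 and 10.9 against 78.9 and 27.8 CPM (log2 difference -3.29 ± 0.70, adjusted p = 0.00658). The growth factor receptor genes KIT and FLT3 and the aminopeptidase gene ANPEP, which encodes CD13, were higher in PF-382. KIT was at 15.4, 14.6, 17.2, 14.96 and 16.7 against 2.66 and 3.64 CPM (log2 difference 2.32 ± 0.23, adjusted p = 2.16e-04), FLT3 at 3.92, 10.7, 3.60, 3.09 and 3.95 against 0.541 and 0.644 CPM (log2 difference 3.08 ± 0.63, adjusted p = 0.00542), and ANPEP at 1.16, 0.911, 0.389, 0.206 and 0.162 against 0.0416 and 0 CPM (adjusted p = 0.0249). Calls of the list higher in PF-382 and in MOLT-14 numbered 1 and 4 without the empty-vector library and 2 and 5 without the STAG2-transduced library. Leaving out a library ended the call of CD34, FLT3 and ANPEP. For CD34 the adjusted p was 0.1002 without the empty-vector library. For FLT3 the adjusted p was 0.0598 without the empty-vector library. For ANPEP the adjusted p was 0.0633 and 0.146 without the empty-vector and STAG2-transduced libraries in turn. HOPX and SPI1 of this list were at 0 counts in all libraries.

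Surface proteins that mark thymocyte stages divided evenly in number, 5 of 22 tested (23 listed) higher in PF-382 and 5 in MOLT-14 (median 0.34), beside 20.5% and 22.0% of all genes tested. Among those higher in PF-382, the coreceptor gene CD8A was at 18.9, 7.19, 44.3, 27.5 and 20.7 against 1.69 and 0.845 CPM (log2 difference 4.23 ± 0.76, adjusted p = 0.00310) and CD4, low in both, at 1.97, 2.11, 3.93, 2.85 and 3.97 against 0.291 and 0.221 CPM (log2 difference 3.53 ± 0.50, adjusted p = 0.00109). CD1E was at 29.7, 15.4, 21.7, 15.5 and 22.5 against 0.957 and 1.47 CPM (log2 difference 4.11 ± 0.40, adjusted p = 2.01e-04) and CD1D at 17.1, 17.5, 14.3, 10.6 and 8.58 against 4.06 and 3.64 CPM (log2 difference 1.82 ± 0.34, adjusted p = 0.00394), while CD1A overlapped at 31.4 to 67.6 and 60.5 and 103 CPM (log2 difference -0.59, adjusted p = 0.159). Among those higher in MOLT-14, the costimulatory receptor CD28 stood at 1.63, 9.34, 2.48, 2.41 and 4.82 against 243 and 309.5 CPM (log2 difference -6.07 ± 0.59, adjusted p = 2.08e-04). CD96 was at 1.505, 0.358, 0.454, 0.618 and 0.904 against 42.8 and 41.7 CPM (log2 difference -5.79 ± 0.46, adjusted p = 8.36e-05). CD7, present on nearly all T-ALL cells, was read in both lines, at 38.9, 11.03, 16.8, 30.8 and 28.04 CPM in PF-382 and 421 and 429.5 CPM in MOLT-14 (log2 difference -4.08 ± 0.40, adjusted p = 2.19e-04). PTPRC, the leukocyte antigen CD45, did not overlap at 33.2 to 244 and 424 and 452 CPM and was not called (log2 difference -1.32, adjusted p = 0.0982). 

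T-lineage transcription factors were called in 14 of 33 tested members (34 listed), 9 higher in PF-382 and 5 in MOLT-14 (median 0.26). This is near the share over all genes tested, of which 42.5% were called, 20.5% higher in PF-382 and 22.0% in MOLT-14. The widest difference was ZBTB16, which encodes PLZF, a factor of innate-like and some gamma delta T cells: 0.0313, 0.0976, 0, 0 and 0 CPM in PF-382 and 153 and 162 CPM in MOLT-14 (log2 difference -13.19 ± 0.62, adjusted p = 7.97e-06). SOX13, described in gamma delta thymocytes, was at 0, 0.0651, 0.0162, 0.309 and 0.0405 against 3.35 and 2.03 CPM (log2 difference -4.76 ± 0.95, adjusted p = 0.00491). GATA3, needed at several stages of T-cell development, was higher in MOLT-14 at 41.2 and 47.2 against 27.5, 29.8, 19.7, 15.01 and 11.8 CPM (log2 difference -1.09 ± 0.34, adjusted p = 0.0311), as was EGR1, an immediate early gene, at 20.5 and 7.78 against 4.51, 4.03, 2.45, 2.08 and 2.39 CPM (log2 difference -2.20 ± 0.43, adjusted p = 0.00444). On the PF-382 side were the chromatin organiser SATB1, at 209.6, 245, 176, 160.3 and 206 against 56.6 and 48.6 CPM (log2 difference 1.92 ± 0.22, adjusted p = 4.14e-04), and SOX4, at 1065, 1631, 886, 880.3 and 892 against 390.2 and 446 CPM (log2 difference 1.36 ± 0.31, adjusted p = 0.00863). RUNX1 followed with 203 to 316 against 98.1 and 110.1 CPM and the commitment factor BCL11B with 416 to 623 against 215 and 261 CPM (log2 differences 1.30 and 1.11, adjusted p = 0.00366 and 0.00418). IKZF3, low in both, had 0.925 to 2.08 against 0.262 and 0.749 CPM (log2 difference 1.65 ± 0.54, adjusted p = 0.0383). LEF1 did not overlap at 485 to 916 and 377 and 457 CPM and was not called (adjusted p = 0.0767). The numbers of calls in these directions were 5 and 2 without the empty-vector library and 4 and 4 without the STAG2-transduced library. The call was not kept without every library for GATA3, EGR1, SOX4, BCL11B and IKZF3. For GATA3 the adjusted p was 0.112, 0.175, 0.0586 and 0.0587 without the empty-vector, STAG2-transduced, knockout 1 and knockout 2 libraries in turn. For EGR1 the adjusted p was 0.0941 without the empty-vector library. For SOX4 the adjusted p was 0.0794 and 0.0515 without the empty-vector and STAG2-transduced libraries in turn. For BCL11B the adjusted p was 0.0536 without the STAG2-transduced library. For IKZF3 the adjusted p was 0.227, 0.0518, 0.0506, 0.0724 and 0.0650 without the STAG2-transduced, wild-type 1, wild-type 2, knockout 2 and knockout 3 libraries in turn. It was 0.0621 with upper-quartile scaling, 0.0949 with library totals alone, 0.0531 without the filter on low counts and 0.0586 with protein-coding genes alone.

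**Figure D4:**
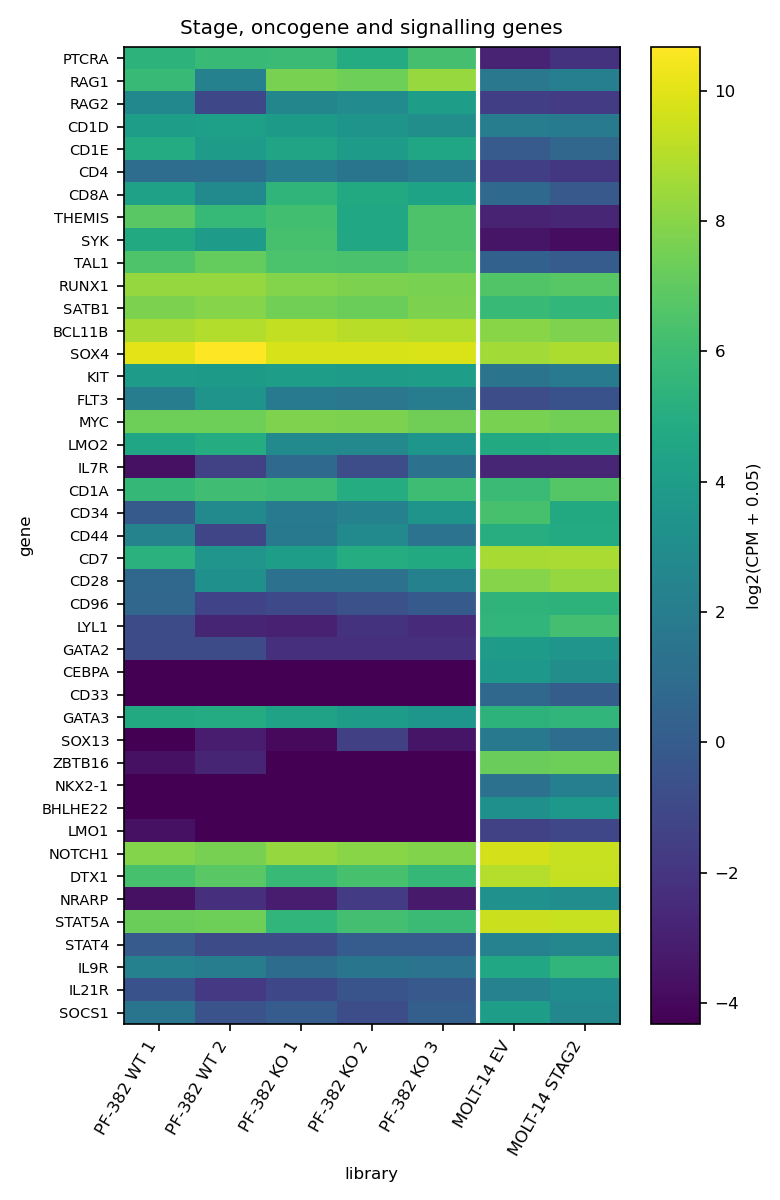
Colour shows log2 of CPM plus 0.05 for genes of thymocyte stage, T-ALL oncogenes and signalling (rows) in the 5 PF-382 and 2 MOLT-14 libraries (columns, separated by the white line; WT wild type, KO knockout, EV empty vector). Pre-TCR, TAL1 and CD8A rows are brighter in PF-382, LYL1, ZBTB16, CD28 and STAT5A rows are brighter in MOLT-14, and MYC spans 162 to 216 CPM over the 7 columns.

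Transcription factor oncogenes of T-ALL differed line by line: 2 of 17 tested members (27 listed) were higher in PF-382 and 7 in MOLT-14 (median -1.22). Among all genes tested the shares were 20.5% and 22.0%. TAL1, whose activation defines the largest T-ALL subgroup, was read at 91.9, 142, 87.0, 81.9 and 103 CPM in PF-382 and 1.21 and 0.986 CPM in MOLT-14 (log2 difference 6.53 ± 0.34, adjusted p = 1.17e-05). LYL1, a relative of TAL1, showed the opposite pattern, as given above. NKX2-1, a thyroid and lung homeobox gene activated in some T-ALL, was at 0 counts in PF-382 and 2.50 and 4.37 CPM in MOLT-14 (at least 35.2-fold higher, adjusted p = 0.00106). BHLHE22 was likewise at 0 counts against 9.20 and 12.7 CPM (at least 112-fold higher, adjusted p = 4.02e-04). LMO1 was under 1 CPM in all libraries, at 0.0313, 0, 0, 0 and 0 against 0.333 and 0.402 CPM (adjusted p = 0.00155). LMO2, the partner of both TAL1 and LYL1, overlapped at 23.5, 31.5, 7.06, 6.69 and 11.5 and 28.01 and 29.9 CPM (log2 difference -0.85, adjusted p = 0.267). MYC overlapped at 162 to 216 and 178 and 199 CPM (log2 difference -0.03, adjusted p = 0.891), as did MYB at 323 to 739 and 386 and 414 CPM (adjusted p = 0.666). TLX3 was at 0 counts in every library, and HOXA9 and HOXA10 did not pass 0.0325 CPM in any. Counted again, calls higher in PF-382 and in MOLT-14 came to 2 and 4 without the empty-vector library and 1 and 5 without the STAG2-transduced library. 

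Of 35 tumour suppressors of T-ALL, 32 were tested, 12 of which were higher in PF-382 and 5 in MOLT-14 (median 0.44). The shares of all genes tested were 20.5% and 22.0%. The cell cycle inhibitors CDKN1B and RB1 were higher in PF-382, at 151, 189, 115, 112 and 146 against 52.6 and 56.4 CPM and 307, 298, 354, 353 and 355 against 120.4 and 135 CPM (log2 differences 1.39 and 1.39, adjusted p = 0.00267 and 6.13e-04). Higher in MOLT-14 were the histone demethylase KDM6A, at 67.2 and 61.5 against 23.9, 25.5, 16.2, 16.8 and 18.6 CPM (log2 difference -1.67 ± 0.21, adjusted p = 6.04e-04), and ETV6, at 218 and 251 against 90.5, 161, 62.9, 67.8 and 76.3 CPM (log2 difference -1.35 ± 0.34, adjusted p = 0.0135). SH2B3, an adaptor that restrains cytokine signalling, was at 46.5 and 48.5 against 25.8, 21.3, 26.0, 28.6 and 27.7 CPM (log2 difference -0.88 ± 0.16, adjusted p = 0.00324). Higher in PF-382 and in MOLT-14 were 7 and 2 without the empty-vector library and 7 and 2 without the STAG2-transduced library members. Omitting a library could end the call of ETV6. For ETV6 the adjusted p was 0.0640 and 0.0991 without the empty-vector and STAG2-transduced libraries in turn. It was 0.0574 with wild-type PF-382 libraries alone.

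The tumour suppressors on chromosome 9 did not separate the lines, but their neighbours did. CDKN2A (chromosome 9, 21967753 to 21995301, - strand) and CDKN2B had 0 counts in all 7 libraries, and MTAP next to them did not pass 0.146 CPM. On the telomeric side MLLT3 (chromosome 9, 20341665 to 20622543, - strand), FOCAD (chromosome 9, 20658309 to 20995955, + strand) and KLHL9 (chromosome 9, 21329671 to 21335380, - strand) had 0 counts in each PF-382 library. In MOLT-14 they were read at 14.2 and 17.4, at 70.3 and 68.9 and at 66.7 and 67.0 CPM. These differences were at least 162-fold, 713-fold and 685-fold (adjusted p = 2.70e-04, 7.30e-05 and 7.47e-05). The next expressed genes outward, ACER2 at 2.60 to 5.50 and CAAP1 at 27.9 to 45.4 CPM in PF-382, were read in both lines. Protein-coding genes between them that are not named, which include the interferon alpha genes, did not pass 0.342 CPM in any library. Lost DNA and lost transcription cannot be told apart from RNA counts.

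**Figure D5:**
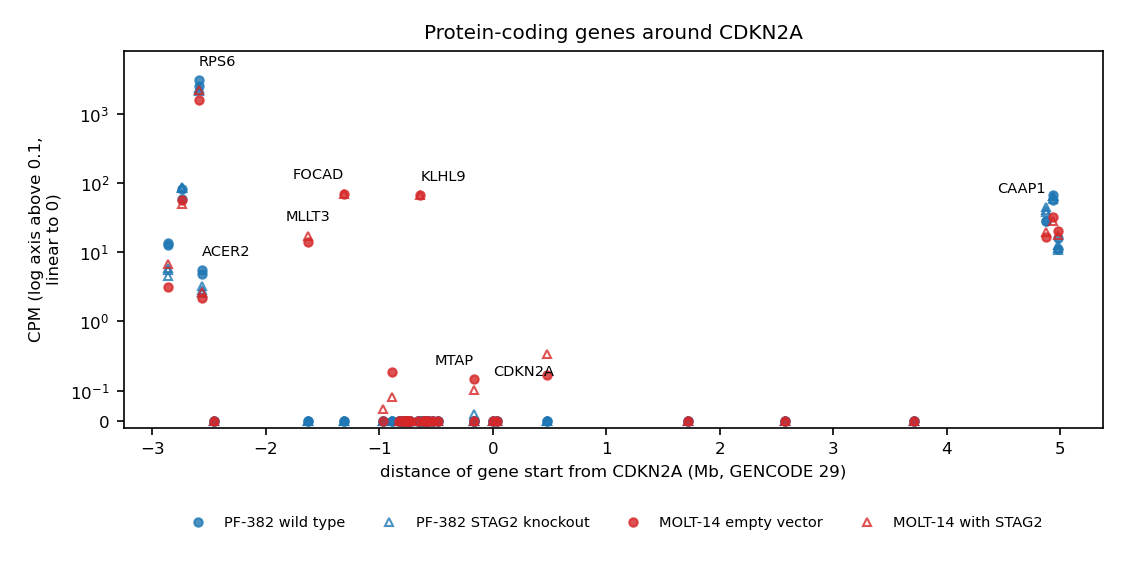
CPM of each protein-coding gene (vertical axis, logarithmic above 0.1) by the distance of its start from that of CDKN2A in Mb (horizontal axis), in every library. MLLT3, FOCAD and KLHL9 are read in both MOLT-14 libraries (red) and sit at 0 in all PF-382 libraries (blue), while CDKN2A sits at 0 in both lines and the flanking ACER2, RPS6 and CAAP1 are read in both.

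Among 28 Notch pathway genes tested (30 listed), 9 were higher in MOLT-14 and 5 in PF-382 (median -0.32). All genes tested gave 22.0% and 20.5%. Notch is a surface receptor whose cleaved part drives transcription in early thymocytes and in most T-ALL. NRARP, a direct target that restrains the Notch complex, was at 0.0313, 0.163, 0.0649, 0.263 and 0.0540 CPM in PF-382 and 9.72 and 8.07 CPM in MOLT-14 (log2 difference -6.19 ± 0.63, adjusted p = 2.43e-04). DTX1, another target, was at 77.7, 113, 54.9, 79.4 and 50.0 against 517 and 652 CPM (log2 difference -2.96 ± 0.29, adjusted p = 2.22e-04), and its relative DTX4 at 2.40 to 4.64 against 22.1 and 23.7 CPM (log2 difference -2.86 ± 0.27, adjusted p = 1.98e-04). The coactivator MAML3 was at 1.16 to 2.80 against 13.9 and 14.4 CPM (log2 difference -2.92 ± 0.37, adjusted p = 6.61e-04), and NOTCH1 itself, named after its values were seen, at 233, 197, 314, 255 and 228 against 824 and 671 CPM (log2 difference -1.61 ± 0.20, adjusted p = 6.41e-04). Conversely DTX3 was at 30.0, 17.8, 24.8, 29.1 and 22.9 in PF-382 against 0.0416 and 0.0201 CPM in MOLT-14 (adjusted p = 8.82e-06) and met the rule for a gene silent in MOLT-14. HEYL was at 1.14 to 2.54 against 0.208 and 0.362 CPM (log2 difference 2.77 ± 0.51, adjusted p = 0.00348), NOTCH2 at 64.0 to 86.3 against 21.0 and 28.8 CPM (log2 difference 1.57 ± 0.20, adjusted p = 7.00e-04) and TRIB1 at 0.850 to 2.18 against 0.0805 and 0.416 CPM (log2 difference 2.36 ± 0.71, adjusted p = 0.0286). NOTCH3 at 89.1 to 171 and 116 and 169 CPM and HES1, a classical target, at 55.2 to 147 and 55.2 and 70.6 CPM overlapped and were not called (adjusted p = 0.480 and 0.369). On omission of a library the call was lost for TRIB1. For TRIB1 the adjusted p was 0.150 without the STAG2-transduced library. It was 0.0559 with library totals alone.

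Cytokine receptors and JAK-STAT genes were higher in MOLT-14 in 12 of 32 tested members (36 listed) and higher in PF-382 in 5 (median -0.22). For all genes tested the shares were 22.0% and 20.5%. STAT5A, a transducer of interleukin signals, was named after its values were seen, at 158, 168, 47.3, 72.4 and 60.2 CPM in PF-382 and 718 and 668 CPM in MOLT-14 (log2 difference -2.78 ± 0.47, adjusted p = 0.00236). The receptors IL21R and IL9R were at 0.228 to 0.877 against 4.93 and 7.74 CPM and 1.90 to 4.86 against 24.0 and 46.1 CPM (log2 differences -3.46 and -3.46, adjusted p = 8.13e-04 and 3.20e-04). IL9R lies in a region shared by the sex chromosomes and its estimates were fractional. SOCS1, a feedback inhibitor, was at 0.537 to 2.79 against 6.40 and 16.2 CPM (log2 difference -3.24 ± 0.62, adjusted p = 0.00403) and STAT4 at 0.488 to 0.999 against 4.91 and 5.99 CPM (log2 difference -2.79 ± 0.38, adjusted p = 9.02e-04). Higher in PF-382 beside FLT3 were IL10RB, at 34.3 to 54.6 against 10.4 and 10.8 CPM (log2 difference 1.96 ± 0.23, adjusted p = 4.38e-04), IL10RA, at 0.470 to 1.82 against 0.0805 and 0.125 CPM (log2 difference 3.12 ± 0.70, adjusted p = 0.00842), and IL6ST, the shared receptor chain of the IL-6 family, at 17.0 to 38.3 against 7.80 and 8.99 CPM (log2 difference 1.58 ± 0.38, adjusted p = 0.0113). IL7R, the receptor that sustains thymocytes, was low and overlapping at 0.0313, 0.325, 1.67, 0.537 and 2.42 and 0.104 and 0.101 CPM (adjusted p = 0.0907). Calls of the list higher in PF-382 and in MOLT-14 numbered 2 and 7 without the empty-vector library and 3 and 8 without the STAG2-transduced library. With a library left out, SOCS1, IL10RA and IL6ST no longer passed. For SOCS1 the adjusted p was 0.0616 without the empty-vector library. For IL10RA the adjusted p was 0.0570 and 0.0821 without the empty-vector and STAG2-transduced libraries in turn. For IL6ST the adjusted p was 0.0703 and 0.0904 without the empty-vector and STAG2-transduced libraries in turn.

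Signal transducers below the receptor were called in 11 of 25 members, 7 higher in PF-382 and 4 in MOLT-14 (median -0.02). Calls over all genes tested came to a similar 42.5%, with 20.5% higher in PF-382 and 22.0% in MOLT-14. SYK, the kinase that pre-TCR signals can use in place of ZAP70, was read at 27.5, 14.7, 78.9, 24.3 and 89.9 CPM in PF-382 and 0.0416 and 0.0201 CPM in MOLT-14 (adjusted p = 6.77e-04). THEMIS, an adaptor of positively selected thymocytes, was at 116, 52.0, 70.5, 24.2 and 88.3 against 0.0832 and 0.101 CPM (log2 difference 9.54 ± 0.90, adjusted p = 1.85e-04). LCK, the first kinase of the cascade, was high in both and higher in PF-382, at 1178, 1206, 1043, 1064 and 1328 against 499.8 and 656 CPM (log2 difference 1.01 ± 0.21, adjusted p = 0.00606), and the phosphatase PTPN22 was at 18.2 to 28.9 against 10.6 and 11.9 CPM (log2 difference 1.05 ± 0.21, adjusted p = 0.00558). ZAP70 did not overlap at 178 to 222 and 235 and 251 CPM and was not called (log2 difference -0.26, adjusted p = 0.190). On the other side were the kinase TXK, at 0.0940, 0.0325, 0, 0 and 0.0135 against 2.29 and 4.61 CPM (log2 difference -7.29 ± 0.91, adjusted p = 6.10e-04), and the adaptors SH2D2A, at 2.21 to 5.42 against 19.3 and 28.5 CPM (log2 difference -2.60 ± 0.31, adjusted p = 5.18e-04), TESPA1, at 29.4 to 42.3 against 118 and 165 CPM (log2 difference -1.89 ± 0.18, adjusted p = 2.05e-04), and SH2D1A, at 75.2 to 126 against 285 and 307 CPM (log2 difference -1.54 ± 0.21, adjusted p = 9.72e-04). The numbers of calls in these directions were 2 and 4 without the empty-vector library and 4 and 4 without the STAG2-transduced library. The call of LCK and PTPN22 ended when a library was left out. For LCK the adjusted p was 0.0676 without the empty-vector library. For PTPN22 the adjusted p was 0.0674 without the empty-vector library.

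Among 23 tested homing and adhesion genes (25 listed) 7 were higher in MOLT-14 and 2 in PF-382 (median -0.17). Shares over all genes tested were 22.0% and 20.5%. CXCR4, the chemokine receptor that retains T-ALL cells in marrow, was at 729, 657, 668, 619 and 743 CPM in PF-382 and 178 and 164 CPM in MOLT-14 (log2 difference 2.00 ± 0.19, adjusted p = 1.67e-04). SELPLG, the selectin ligand, was at 7.68 to 24.3 against 4.77 and 5.55 CPM (log2 difference 1.68 ± 0.41, adjusted p = 0.0125). The integrin chain ITGAE was higher in MOLT-14 at 82.2 and 124 against 32.5 to 36.9 CPM (log2 difference -1.61 ± 0.17, adjusted p = 2.96e-04), as was CCR7, at 4.83 and 5.89 against 0.0976 to 1.30 CPM (log2 difference -2.96 ± 0.71, adjusted p = 0.0113). CXCR3 was under 1 CPM in all libraries, at 0.322 and 0.458 against 0 to 0.148 CPM (log2 difference -2.69 ± 0.94, adjusted p = 0.0485). CCR9, a thymic homing receptor, overlapped at 126 to 368 and 112 and 157 CPM (adjusted p = 0.118). Counted again, calls higher in PF-382 and in MOLT-14 came to 1 and 3 without the empty-vector library and 1 and 2 without the STAG2-transduced library. Leaving out a library ended the call of SELPLG, CCR7 and CXCR3. For SELPLG the adjusted p was 0.109 and 0.0781 without the empty-vector and STAG2-transduced libraries in turn. For CCR7 the adjusted p was 0.0771 and 0.0555 without the empty-vector and STAG2-transduced libraries in turn. For CXCR3 the adjusted p was 0.255, 0.160, 0.0562, 0.0535, 0.0537 and 0.0853 without the empty-vector, STAG2-transduced, wild-type 1, wild-type 2, knockout 1 and knockout 2 libraries in turn. It was 0.0692 with DESeq2, 0.0792 without the filter on low counts and 0.0535 with protein-coding genes alone.

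The apoptosis regulators of the BCL2 family were called in 6 of 14 tested members (16 listed), 2 higher in PF-382 and 4 in MOLT-14 (median -0.11). That share is close to the 42.5% called among all genes tested, 20.5% higher in PF-382 and 22.0% in MOLT-14. Of the anti-apoptotic genes, BCL2L1, which encodes BCL-XL, was at 145, 168, 172, 169 and 179 CPM in PF-382 and 33.6 and 39.1 CPM in MOLT-14 (log2 difference 2.19 ± 0.17, adjusted p = 8.15e-05). BCL2L2, which encodes BCL-w, was at 0.282, 0.423, 0.373, 0.377 and 0.297 against 18.6 and 18.8 CPM (log2 difference -5.73 ± 0.25, adjusted p = 6.71e-06), with estimates that were partly fractional. The pro-apoptotic HRK and BBC3 were at 0.0649 to 0.878 against 4.06 and 5.203 CPM and 0.0324 to 2.41 against 7.30 and 8.57 CPM (log2 differences -4.35 and -3.69, adjusted p = 0.00730 and 0.0352). BAX was at 19.97, 17.7, 27.3, 28.2 and 25.3 against 54.0 and 52.2 CPM (log2 difference -1.16 ± 0.21, adjusted p = 0.00297). The call was not kept without every library for BBC3. For BBC3 the adjusted p was 0.135, 0.112, 0.0606, 0.0578 and 0.0661 without the empty-vector, STAG2-transduced, wild-type 2, knockout 2 and knockout 3 libraries in turn.

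MHC class I genes present peptides to CD8 T cells. They were higher in PF-382 in 6 of 16 tested members (17 listed) and higher in MOLT-14 in 2 (median 0.29). The matching shares of all genes tested were 20.5% and 22.0%. B2M, the invariant light chain, was at 1264, 1831, 1177, 1178 and 1519 CPM in PF-382 and 264 and 267 CPM in MOLT-14 (log2 difference 2.39 ± 0.27, adjusted p = 3.86e-04). HLA-B, a heavy chain, followed with 142 to 533 against 57.5 and 57.9 CPM (log2 difference 2.19 ± 0.55, adjusted p = 0.0136). HLA-F was at 8.20 to 20.7 CPM in PF-382 and at 0 counts in MOLT-14 (at least 199.6-fold higher, adjusted p = 1.23e-04). Alleles of these genes vary, so their counts also depend on how well each line's alleles match the reference, which was not tested. NLRC5, the class I transactivator, was the other way round at 6.34 to 17.2 against 25.9 and 48.5 CPM (log2 difference -1.77 ± 0.37, adjusted p = 0.00625), and so was the peptide transporter TAP2 at 13.9 to 21.7 against 38.0 and 44.4 CPM (log2 difference -1.12 ± 0.20, adjusted p = 0.00314). Class II genes were near 0 in both lines: 7 of 13 could be tested, their summed level was 4.40 to 20.7 CPM in PF-382 and 10.1 and 10.7 CPM in MOLT-14, and CIITA and CD74 did not pass 0.470 CPM. HLA-DPA1 was called higher in PF-382 and HLA-DQB1 and HLA-DOB in MOLT-14, all at or under 5.26 CPM (adjusted p = 0.0205, 6.75e-04 and 0.00397). Omitting a library could end the call of HLA-B, NLRC5, TAP2, HLA-DPA1 and HLA-DOB. For HLA-B the adjusted p was 0.0967 and 0.0946 without the empty-vector and STAG2-transduced libraries in turn. For NLRC5 the adjusted p was 0.105 without the STAG2-transduced library. For TAP2 the adjusted p was 0.0505 without the empty-vector library. For HLA-DPA1 the adjusted p was 0.0794 and 0.141 without the empty-vector and STAG2-transduced libraries in turn. For HLA-DOB the adjusted p was 0.0773 without the STAG2-transduced library.

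HOX genes, which set position along the body axis and are active in some T-ALL, were higher in MOLT-14 in 9 of 19 tested members (39 listed) and higher in PF-382 in 1 (median -1.51). Over all genes tested, 22.0% were higher in MOLT-14 and 20.5% in PF-382. The HOX genes summed to 24.4 to 33.6 CPM in PF-382 and 72.7 and 84.8 CPM in MOLT-14. HOXB2 was at 0 to 0.0313 against 9.82 and 14.0004 CPM (adjusted p = 4.03e-05) and HOXB9 at 0 to 0.502 against 7.85 and 10.1 CPM (log2 difference -6.06 ± 1.09, adjusted p = 0.00322). HOXD9 was at 0 counts in PF-382 and 1.81 and 1.94 CPM in MOLT-14 (at least 19.2-fold higher, adjusted p = 0.00119). HOXD8 was the sole member called higher in PF-382, at 0.503 to 1.14 against 0.291 and 0.342 CPM (log2 difference 1.44 ± 0.48, adjusted p = 0.0408). Higher in PF-382 and in MOLT-14 were 0 and 5 without the empty-vector library and 0 and 5 without the STAG2-transduced library members. On omission of a library the call was lost for HOXD8. For HOXD8 the adjusted p was 0.213, 0.156, 0.0504, 0.0565, 0.0815 and 0.0572 without the empty-vector, STAG2-transduced, wild-type 1, wild-type 2, knockout 2 and knockout 3 libraries in turn. It was 0.0697 with upper-quartile scaling, 0.0922 with library totals alone, 0.0588 without the filter on low counts and 0.0717 with protein-coding genes alone.

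Imprinted loci and genes often silenced through CpG islands were called in 5 of 15 tested members (26 listed), 3 higher in PF-382 and 2 in MOLT-14 (median -0.17). The call rate over all genes tested was 42.5%. MAGEL2, in the imprinted region of chromosome 15, was at 0 counts in PF-382 and 7.03 and 7.06 CPM in MOLT-14 (at least 72.2-fold higher, adjusted p = 4.57e-04). PLAGL1 was at 2.35 to 3.46 against 12.9 and 13.1 CPM (log2 difference -2.05 ± 0.23, adjusted p = 4.24e-04). MEST was at 2.26, 0.0976, 0.195, 2.30 and 1.27 CPM in PF-382 and 0 counts in MOLT-14 (at least 19.6-fold higher, adjusted p = 0.0214). SNRPN was at 139 to 260.5 against 96.3 and 106 CPM (log2 difference 1.02 ± 0.25, adjusted p = 0.0123) and GNAS at 729.6 to 1337 against 569.9 and 619 CPM (log2 difference 0.85 ± 0.29, adjusted p = 0.0430). With a library left out, MEST, SNRPN and GNAS no longer passed. For MEST the adjusted p was 0.102 and 0.0995 without the empty-vector and STAG2-transduced libraries in turn. For SNRPN the adjusted p was 0.110 and 0.0753 without the empty-vector and STAG2-transduced libraries in turn. For GNAS the adjusted p was 0.213, 0.153, 0.0835, 0.0839 and 0.0818 without the empty-vector, STAG2-transduced, knockout 1, knockout 2 and knockout 3 libraries in turn. It was 0.139 with library totals alone, 0.0715 without the filter on low counts and 0.269 with wild-type PF-382 libraries alone.

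Markers of other cell types were summed to show what else the cultures could hold, and their part in the results above was not tested. Calls in these marker lists stand beside 20.5% of all genes tested higher in PF-382 and 22.0% in MOLT-14. Of natural killer markers 6 of 16 were tested, 4 were higher in MOLT-14 and 1 in PF-382 (median -3.91), and the list summed to 15.9 to 20.8 CPM in PF-382 and 40.1 and 40.3 CPM in MOLT-14. NKG7, a granule membrane protein, was at 0.0649 to 0.720 against 19.9 and 21.7 CPM (log2 difference -5.64 ± 0.60, adjusted p = 3.02e-04), GZMA at 0.125 to 1.30 against 6.22 and 11.3 CPM (log2 difference -3.72 ± 0.70, adjusted p = 0.00375), NCR3 at 0.0325 to 0.162 against 1.73 and 2.19 CPM (log2 difference -4.41 ± 0.48, adjusted p = 3.55e-04) and GNLY at 0.0270 to 0.0940 against 0.603 and 1.12 CPM (log2 difference -4.09 ± 0.53, adjusted p = 7.39e-04). NCAM1, which encodes CD56, was the one higher in PF-382, at 12.7 to 17.6 against 1.43 and 1.87 CPM (log2 difference 3.18 ± 0.26, adjusted p = 1.07e-04). FCGR3A, GZMH and KLRC1 were at 0 counts in all libraries.

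Of 13 B-lineage markers 8 were tested and 3 were higher in MOLT-14 (median -1.47), with sums of 5.37 to 51.0 CPM in PF-382 and 103 and 128 CPM in MOLT-14. BLK, a kinase of B cells and some gamma delta T cells, was at 0 counts in PF-382 and 37.2 and 41.4 CPM in MOLT-14 (at least 403-fold higher, adjusted p = 1.21e-04). IGLL1, a surrogate light chain gene, was at 0.0324 to 0.470 against 33.1 and 39.9 CPM (log2 difference -7.97 ± 0.71, adjusted p = 1.38e-04) and its partner VPREB1 at 0 counts against 0.874 and 2.29 CPM (at least 16.2-fold higher, adjusted p = 0.00265). MS4A1, which encodes CD20, was at 0 counts in every library. Myeloid markers summed to 24.7 to 62.9 CPM in PF-382 and 34.7 and 39.0 CPM in MOLT-14, with 7 of 17 tested, 1 higher in PF-382 and 2 in MOLT-14 (median 1.49). The myeloid median depended on the PF-382 libraries, at 1.44 with wild type alone and -5.32 with knockout alone, over 6 genes each. The B-lineage median was -0.55 with wild type alone, over 8 genes, and -3.43 with knockout alone, over 7 genes. CSF3R, the granulocyte growth factor receptor, was at 0 to 0.0114 against 16.2 and 23.2 CPM (adjusted p = 6.96e-06), whereas CST3 was at 20.5 to 36.1 against 0 and 0.0201 CPM (adjusted p = 1.30e-05). ELANE and FCGR3A were at 0 counts throughout. Erythroid and megakaryocytic markers summed to 89.7 to 153 CPM in PF-382 and 10.0 and 10.7 CPM in MOLT-14, and TAL1 was their sole called member of 4 tested (median 0.01), with 7 of 13 at 0 counts in all libraries. TAL1, whose levels are given above, made up most of this sum in PF-382. The median was 0.65 with wild-type and -0.65 with knockout PF-382 libraries alone. Stromal and epithelial markers had 2 of 6 tested (13 listed) higher in PF-382 and 1 in MOLT-14 (median 0.58) and summed to 54.0 to 73.1 CPM and to 33.4 and 34.1 CPM. KRT18 was at 5.82 to 19.9 CPM in PF-382 and 0 counts in MOLT-14 (at least 151-fold higher, adjusted p = 5.35e-04), PECAM1 at 39.4 to 61.1 against 30.2 and 30.4 CPM (log2 difference 0.66 ± 0.19, adjusted p = 0.0254) and VWF, under 1 CPM in all libraries, at 0 to 0.0973 against 0.322 and 0.645 CPM (log2 difference -2.72 ± 0.68, adjusted p = 0.0132). The call of PECAM1 and VWF ended when a library was left out. For PECAM1 the adjusted p was 0.146, 0.125 and 0.0517 without the empty-vector, STAG2-transduced and knockout 3 libraries in turn. It was 0.0665 with upper-quartile scaling and 0.176 with library totals alone. For VWF the adjusted p was 0.185 and 0.0538 without the empty-vector and STAG2-transduced libraries in turn.

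Beyond the lists, genes read in one line and absent in the other were counted. A gene was called silent in a line when each of its libraries held at most 3 counts and every library of the other line held at least 1 CPM. In MOLT-14, 133 genes were silent (1.09% of 12180 genes with at least 1 CPM in every PF-382 library), 106 of them protein-coding. In PF-382, 299 genes were silent (2.20% of 13596), 216 of them protein-coding. Each line has a different number of libraries that must all be silent or all be read, so these numbers do not compare the lines. At 0 counts were 79 and 158 of them, and 33 and 73 had at least 10 CPM in every library of the other line.

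The silent protein-coding genes with the highest levels in the other line were as follows in PF-382. ST18, a zinc finger factor, was at 0 to 0.0343 CPM in PF-382 and 224 and 236 CPM in MOLT-14, and ADCYAP1, the neuropeptide PACAP, at 0 to 0.0270 against 219.7 and 330.3 CPM. UCHL1, a neuronal ubiquitin hydrolase, reached 54.7 and 104 CPM in MOLT-14, ECPAS, a proteasome adaptor, 85.6 and 86.7 CPM, and B4GALNT4 80.1 and 91.9 CPM, all at or under 0.0229 CPM in PF-382. The cytoskeletal adducin ADD2 was at 56.9 and 57.2 CPM, KCTD15 at 57.2 and 57.6 CPM, MPST, a sulphur transferase, at 46.3 and 48.2 CPM, and GFRA1, a receptor of glial growth factors, at 40.4 and 65.6 CPM in MOLT-14. FOCAD, KLHL9 and ZBTB16 complete these 12. Also among the largest differences on this side were ARHGEF12, CTPS2, ZNF354C and ZNF536, at 0 counts in PF-382 and 28.01 to 48.5 CPM in MOLT-14, and FRG2C, a multicopy gene with uncertain counts, at 30.3 and 63.0 CPM.

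In MOLT-14 the matching genes were TNFAIP2, a gene induced by tumour necrosis factor, at 0 counts against 55.3 to 109 CPM in PF-382, GRPEL2, a mitochondrial co-chaperone, at 0 and 0.0208 against 65.1 to 84.9 CPM, and POGLUT3, an endoplasmic glucosyltransferase, at 0.0201 and 0.0624 against 55.6 to 123 CPM. TSPYL5 at 49.4 to 72.1 CPM, NKAIN4 at 36.5 to 137 CPM and BEX1 at 29.3 to 89.0 CPM in PF-382 were at 0 counts in MOLT-14. So were PYCR1, of proline synthesis, at 30.6 to 55.1 CPM and the tetraspanin TSPAN6 at 30.6 to 36.2 CPM. SMIM15, TUSC3, C9orf64 and EPHX2, the soluble epoxide hydrolase, did not pass 0.0624 CPM in MOLT-14 and had 29.7 to 86.3 CPM in PF-382. CBR1, EIF5A2, HENMT1, PXMP4, VRK2 and C8orf88 were at 0 counts in MOLT-14 and at 9.21 to 45.5 CPM in PF-382, at least 282-fold higher each. Their adjusted p values and those of the genes in the preceding paragraph were at most 3.67e-04. All these genes were picked for their differences in the same libraries. Small p values follow from that choice and add no support.

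Promoters are printed for 4 of the most clearly silent genes, to show what sequence lies at starts that are read in one line and not in the other. CG is the pair of bases that DNA methylation marks in human cells, and methylation was not measured here. The sequences are RefSeq windows of GRCh38.p14, from 250 bases before to 50 bases after the annotated start, on the gene's strand, with each CG in capitals, for the 2 silent genes of each line with the highest level in the other line among those in the table. ADCYAP1 and ECPAS were silent in PF-382, and GRPEL2 and POGLUT3 in MOLT-14.
ADCYAP1, chr18:904621-904920, + strand: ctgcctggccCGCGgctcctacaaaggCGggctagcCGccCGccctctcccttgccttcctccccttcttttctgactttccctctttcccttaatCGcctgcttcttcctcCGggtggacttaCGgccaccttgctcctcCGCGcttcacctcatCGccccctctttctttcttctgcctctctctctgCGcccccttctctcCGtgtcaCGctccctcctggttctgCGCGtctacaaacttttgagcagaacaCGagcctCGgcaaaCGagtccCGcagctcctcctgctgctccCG
ECPAS, chr9:111484334-111484633, - strand: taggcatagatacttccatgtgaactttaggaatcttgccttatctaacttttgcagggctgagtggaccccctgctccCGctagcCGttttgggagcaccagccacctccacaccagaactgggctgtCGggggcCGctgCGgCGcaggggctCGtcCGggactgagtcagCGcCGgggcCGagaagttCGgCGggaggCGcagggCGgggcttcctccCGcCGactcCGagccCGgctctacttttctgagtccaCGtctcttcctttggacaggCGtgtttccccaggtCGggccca
GRPEL2, chr5:149345249-149345548, + strand: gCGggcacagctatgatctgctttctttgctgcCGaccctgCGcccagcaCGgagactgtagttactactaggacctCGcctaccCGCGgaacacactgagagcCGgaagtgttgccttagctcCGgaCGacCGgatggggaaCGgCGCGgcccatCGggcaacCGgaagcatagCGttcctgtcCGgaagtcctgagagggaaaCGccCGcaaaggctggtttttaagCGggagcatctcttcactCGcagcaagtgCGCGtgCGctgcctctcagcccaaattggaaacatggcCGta
POGLUT3, chr11:108498335-108498634, - strand: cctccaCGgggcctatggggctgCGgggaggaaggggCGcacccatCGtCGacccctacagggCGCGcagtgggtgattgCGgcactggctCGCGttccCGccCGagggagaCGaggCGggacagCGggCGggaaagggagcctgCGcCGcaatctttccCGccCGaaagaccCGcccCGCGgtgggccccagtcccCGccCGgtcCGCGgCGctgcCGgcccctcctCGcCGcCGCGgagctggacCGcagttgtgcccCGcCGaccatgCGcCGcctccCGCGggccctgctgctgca
These windows hold 21, 22, 26 and 40 CG. A CG reads the same on both strands. Over all 27305 windows of this length the median was 14 CG, and 56.0% held at least 10 CG. Over the 14872 windows of protein-coding genes the median was 22 CG and 73.7% held at least 10 CG. The median was 27 CG over the windows of protein-coding genes read at 1 CPM or more in every library of PF-382 and likewise for MOLT-14. A window was found for 154 of 212 silent protein-coding genes placed on chromosomes 1 to 22 or X in PF-382 and for 80 of 106 in MOLT-14, which is too few for a comparison of CG content between silent and other genes, so that check is void.

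Some silent genes were neighbours. Among protein-coding genes with at least 1 CPM in every library of either line, in order along each chromosome, PF-382 had 14 runs of 2 or 3 consecutive silent genes, holding 31 genes, and MOLT-14 had 3 runs of 2. Runs of 3 in PF-382 were MLLT3, FOCAD and KLHL9 on chromosome 9, ZNF215, NLRP14 and PPFIBP2 on chromosome 11 (6926404 to 7657127) and EPB41L3, L3MBTL4 and PTPRM on chromosome 18 (5392381 to 8406861). A pair with adjoining starts was TST and MPST, sulphur transferases on chromosome 22 (37010859 to 37029822), with TST at 3.78 and 4.25 CPM in MOLT-14 and 0 counts in PF-382. BLK and its neighbour GATA4 on chromosome 8 were also silent together, GATA4 at 2.06 and 2.997 CPM in MOLT-14. In MOLT-14 the pairs were PRAC1 and PRAC2 on chromosome 17, RPS6KA6 and HDX on chromosome X, and the retrotransposon-derived RTL8C and RTL8A on chromosome X (135032366 to 135052196), at 10.8 to 18.3 and 4.36 to 7.91 CPM in PF-382 and 0 counts in MOLT-14. How many such runs an unordered set would give was not tested.

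By chromosome, the median log2 difference of protein-coding genes was highest on chromosome 21, at 0.54 over 140 genes, of which 55 were higher in PF-382 and 11 in MOLT-14. Chromosome 4 followed at 0.44, chromosome 13 at 0.41 and chromosome 18 at 0.38. The lowest medians were on chromosome 17, at -0.29 over 847 genes with 107 higher in PF-382 and 240 in MOLT-14, and on chromosome 19, at -0.19. Over all genes tested, 20.5% were higher in PF-382 and 22.0% in MOLT-14. In the separate PF-382 libraries the median of chromosome 21 was 0.34 to 0.65 and that of chromosome 17 was -0.40 to -0.27. The order of these 2 chromosomes held in all 5. Each was set against the same mean of the MOLT-14 libraries, so they are not separate comparisons. In wild type 2, chromosome 13 lay above chromosome 21, at 0.51 against 0.34. On TPM the medians of all chromosomes were below 0, at -0.17 for chromosome 21 and -0.84 for chromosome 17, and the distance between them was 0.66 in place of 0.83. Chromosome copy number was not measured.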

How the data were processed

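Per the file headers, the authors deposited 1 table per library with estimated counts and TPM (length-scaled transcript abundance) for each gene. Per the submitters' processing notes, STAR and RSEM were used with GRCh38 (hg38). Their versions, the annotation release and the strand setting are not given in the sources used here, so a gene and an overlapping or antisense gene cannot be told apart. The gene lists and the genes examined were chosen with earlier results of these data known.

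The deposited estimated counts were rounded (91.8% to 93.3% were whole already), filtered with edgeR's filterByExpr and scaled by TMM. All 7 libraries were fitted with line as the term (edgeR 4.0.16, R 4.3.3, quasi-likelihood test, Benjamini-Hochberg over 18644 genes, adjusted p under 0.05 called). Error terms are standard errors of the log2 difference, PF-382 minus MOLT-14. Folds against a line at 0 counts divide the mean of the other line by 3 counts per library and cover counting error only. Single libraries can lie nearer that floor. Deposited TPM served only to compare receptor chains and chromosomes. Positions are from GENCODE 29. The script was tested on simulated data.

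Genes named were STAG2, receptor constant, CD3, pre-TCR and main recombination genes, V segments with at least 1 CPM in every library of a line, up to 4 called non-overlapping members per list and direction, the 12 largest differences per direction and the 12 silent genes per line with the highest level in the other. Chosen after their values were seen were CDKN2A's neighbours, MYC, MYB, LMO2, CD1A, CD34, IL7R, ZAP70, LEF1, NOTCH1, NOTCH3, HES1, BCL11B, STAT5A, CCR9, PTPRC, CIITA, CD74, TLX3, HOXA9, HOXA10, TST, GATA4, RTL8A, RTL8C. Alternatives were DESeq2 1.42.0, other scalings and filters, other designs, and each library left out. Results of some genes that this rule names are not reported here.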

Additional observations from a re-analysis of the deposited data

Results flagged for a closer look

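Of 103 named genes with at least 1 CPM in some PF-382 library, 7 had a library whose gap to its nearest neighbour was wide for the range of the 5 PF-382 libraries, wild type and knockout together (Dixon's test on log2 of CPM plus 0.5). Chance gives such a gap in about 1 of 20 groups. In 5 of the 7 the library was wild type 2. There CD3D stood at 703 CPM beside 392 to 441 in the other PF-382 libraries, FLT3 at 10.7 beside 3.09 to 3.95, and C9orf64 at 34.6 beside 31.6 to 32.3. CD247 was low in it, at 42.8 beside 80.99 to 103 CPM, as was TESPA1, at 29.4 beside 38.3 to 42.3 CPM. TUSC3 was low in wild type 1, at 36.1 beside 69.9 to 86.3 CPM. HLA-DPA1 was high in knockout 2, at 5.26 beside 0.607 to 1.15 CPM.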

How the results depend on the processing

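Scaled by library totals alone, 2476 genes were higher in PF-382. With only the knockout PF-382 libraries, 6118 genes were higher in PF-382 and 6898 in MOLT-14, and 12992 called genes did not overlap. Over the libraries left out in turn, these 3 counts ran from 1721 to 4197, from 2013 to 4811 and from 3734 to 8971, the lowest without the empty-vector MOLT-14 library and the highest without wild-type PF-382 library 1. With 0 counts demanded in the silent line, 79 genes were silent in MOLT-14 and 158 in PF-382. With 10 CPM demanded in the other line there were 33 and 73. The range of chromosome medians was 0.9995 with knockout libraries alone and 0.664 on TPM.

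Genes not called changed sign. CD247 had -0.11 with library totals, -0.14 with wild-type PF-382 libraries and -0.048 to 0.54 with libraries left out, and DNTT had 0.58 with wild-type libraries. HES1 had -0.0022, MYB -0.26 and MYC 0.058 with knockout libraries, and MYB -0.11 with library totals. With libraries left out, MYB ran from -0.040 to 0.32, MYC from -0.10 to 0.063, NOTCH3 from -0.47 to 0.066 and TRAC from -0.12 to 2.85. The cause was not tested in any of these. Of 164 called named genes, DESeq2 kept 163, upper-quartile scaling 161, library totals 159 and knockout libraries alone 164, and no called gene reversed in any alternative run. No paired analysis was possible because the labels give the libraries no shared replicate numbers across lines. Arms with 1 MOLT-14 library are assumed to vary like PF-382. Differences near the floor of 3 counts, 0.0319 to 0.0920 unscaled CPM by library, were not resolvable at this depth.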

Other observations

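Some gene families outside the lists also separated the lines. They were picked after their values were seen, so their counts are descriptions. Members near 0 in a line passed the filter on low counts through the other line alone, which fixed their direction. Among these were EPHA2, EPHA4, EPHA6, EPHB3, APOBEC3B, APOBEC3H, GIMAP8 and PCDHGC5 through MOLT-14 and EPHA5 through PF-382. All 12 EPH receptors tested (14 listed), kinases that read ephrins on neighbouring cells, did not overlap between the lines, beside 57.9% of all genes tested, with 3 higher in PF-382 and 9 in MOLT-14. EPHB6, a member without kinase activity, was read at 594, 628, 829, 557 and 559 CPM in PF-382 and 65.0 and 44.7 CPM in MOLT-14 (log2 difference 3.53 ± 0.29, adjusted p = 1.01e-04). EPHA4 was at 0 counts in PF-382 and 4.02 and 14.97 CPM in MOLT-14 (at least 97.2-fold higher, edgeR adjusted p = 0.00168), and EPHA10 was at 0.114 to 1.29 against 9.72 and 14.3 CPM (log2 difference -4.51 ± 0.73, adjusted p = 0.00200).

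Of the APOBEC3 cytidine deaminases, which edit viral and sometimes cellular DNA, 5 of 6 tested were higher in MOLT-14, beside 22.0% of all genes. APOBEC3C was at 9.31, 0.488, 0.341, 2.77 and 1.70 CPM in PF-382 and 68.0 and 73.0 CPM in MOLT-14 (log2 difference -4.61 ± 0.99, adjusted p = 0.00694). Reads of these paralogs are partly shared, which makes single members uncertain. The lymphocyte GTPases of the GIMAP family had 5 of 7 higher in MOLT-14, beside the same 22.0% of all genes. The GIMAP family summed to 27.1 to 64.6 CPM in PF-382 and 117 and 260.5 CPM in MOLT-14. GIMAP6 was at 2.73, 0.358, 0.0162, 0.172 and 0.756 against 36.4 and 72.1 CPM (log2 difference -6.16 ± 1.12, adjusted p = 0.00331). All 21 gamma protocadherins tested (22 listed), neuronal adhesion genes that share exons, were higher in MOLT-14, again beside 22.0% of all genes. As the reads of these protocadherins are partly shared, they are not separate measurements.

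The mismatch repair genes MSH6 and MLH3 were higher in PF-382. MLH3 was at 42.2, 49.1, 53.0, 49.8 and 44.0 CPM against 4.31 and 1.25 CPM (log2 difference 4.10 ± 0.48, adjusted p = 4.76e-04) and MSH6 at 159, 181, 325, 295 and 297 against 109 and 116 CPM (log2 difference 1.16 ± 0.32, adjusted p = 0.0199). PMS2, whose reads are shared with pseudogenes, was higher in MOLT-14 at 59.6 and 57.5 against 44.3, 33.1, 44.1, 45.0 and 40.9 CPM (log2 difference -0.50 ± 0.16, adjusted p = 0.0370). Metallothioneins, which bind zinc and other metals, were higher in PF-382 in 4 of 7 tested members (11 listed), beside 20.5% of all genes. These 4 were at 0 counts in MOLT-14. They passed the filter on low counts through PF-382 alone and could only be called higher there. MT1F was at 4.14, 8.39, 1.33, 2.72 and 2.56 CPM (at least 61.3-fold higher, adjusted p = 0.00177). MT1E was at 6.17 and 5.82 CPM in the wild-type libraries and 0.114 to 0.391 CPM in the knockout libraries. In the same order, MT1G was at 2.07 and 15.7 against 0.243 to 0.769 CPM and MT3 at 2.48 and 1.20 against 0.0811 to 0.553 CPM. The size of these differences between lines thus depends on the PF-382 libraries chosen. The family sum ran from 17.4 to 229.6 CPM within PF-382 and was 10.8 and 14.4 CPM in MOLT-14. MT2A was highest in wild type 2, at 9.59, 84.5, 7.97, 11.9 and 13.98 CPM against 7.64 and 10.9 CPM, and was not called (adjusted p = 0.272).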
